A study of Mus musculus with 6 samples.

Results

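Killer cell lectin-like receptor genes outside the Ly49 family were followed in natural killer (NK) cells and group 1 innate lymphoid cells labelled ILC1, both taken from mouse tumours. The 10 genes were listed by symbol (Klrc1, Klrc2, Klrc3, Klrd1, Klrk1, Klre1, Klri1, Klri2, Klrb1c and Klrg1), and all 10 were found among the 55291 symbols of the count table. The cells came from MC38 colon carcinomas grown under the skin of wild-type C57BL/6 mice for 14 days, and no further treatment or engineered allele is named for either cell type. Both cell types had 3 RNA-seq libraries, with 16931099 to 20224847 counts each. Neither the surface markers of the sort nor whether the samples came from separate mice is given in the sources used here, so p-values measure the spread between these samples only.

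These receptors are type II membrane proteins with a lectin-like domain, and they work as pairs. CD94 (Klrd1) joins an NKG2 chain to read the non-classical class I molecule Qa-1: with NKG2A (Klrc1), which carries inhibitory tyrosine motifs (ITIMs), the pair restrains the cell, and with NKG2C (Klrc2) or NKG2E (Klrc3) it activates through the adaptor DAP12. KLRE1 is in the same way shared by the inhibitory chain KLRI1 and the activating chain KLRI2. NKG2D (Klrk1) is an activating receptor for stress-induced ligands, and Klrb1c encodes the activating NKR-P1C, the NK1.1 antigen of C57BL/6 mice. KLRG1 is an ITIM-bearing receptor for cadherins that marks mature NK cells. Below, Klrc1, Klri1 and Klrg1 are called inhibitory chains, Klrc2, Klrc3, Klrk1, Klri2 and Klrb1c activating chains, and Klrd1 and Klre1 shared partner chains, a grouping by known role made with the values in view.

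The promoters of the 3 NKG2 genes are shown because, of 8 ratios between genes described below, that of Klrc1 to Klrc2 differed most between the cell types. The RefSeq promoter windows on GRCm38.p6 hold 250 bases before and 50 after a start site, and 7 of the 10 genes had 9 windows between them, with 2 each for Klrc2 and Klre1. The 3 windows shown are on the minus strand. Capitals mark the letters ACCACA, which are TGTGGT on the other strand, a RUNX core. The windows lie at chr6:129678924-129679223 for Klrc1, at chr6:129660507-129660806 for Klrc2 (of its 2 windows, the one that lines up with Klrc3, chosen after both were seen) and at chr6:129643239-129643538 for Klrc3.
Klrc1: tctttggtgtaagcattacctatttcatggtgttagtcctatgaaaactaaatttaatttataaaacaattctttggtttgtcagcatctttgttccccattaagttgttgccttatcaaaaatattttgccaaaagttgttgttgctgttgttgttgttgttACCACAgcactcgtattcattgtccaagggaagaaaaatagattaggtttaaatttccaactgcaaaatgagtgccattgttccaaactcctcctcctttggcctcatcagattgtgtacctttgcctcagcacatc
Klrc2: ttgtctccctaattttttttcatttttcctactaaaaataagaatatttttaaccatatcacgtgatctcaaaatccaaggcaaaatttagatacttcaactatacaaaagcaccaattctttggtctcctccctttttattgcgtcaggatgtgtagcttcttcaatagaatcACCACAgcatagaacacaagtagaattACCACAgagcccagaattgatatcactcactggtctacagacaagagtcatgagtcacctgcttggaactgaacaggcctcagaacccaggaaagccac
Klrc3: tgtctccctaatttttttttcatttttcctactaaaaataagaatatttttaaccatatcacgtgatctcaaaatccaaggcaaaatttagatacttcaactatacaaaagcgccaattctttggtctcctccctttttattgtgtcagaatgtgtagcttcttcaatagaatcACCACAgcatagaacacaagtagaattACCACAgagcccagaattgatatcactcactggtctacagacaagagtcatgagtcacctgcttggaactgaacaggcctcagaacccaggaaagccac
Position by position without gaps, the Klrc2 and Klrc3 windows were identical at 289 of 300 bases, and the Klrc1 and Klrc2 windows at 85 of 300. Such a count depends on the start site, as the other Klrc2 window was identical to that of Klrc3 at 76 of 300. The Klrc2 window shown was picked to line up with Klrc3, and none was shifted to fit Klrc1. The count of 85 therefore cannot tell how alike the Klrc1 and Klrc2 promoters are. The longest run shared by Klrc1 and Klrc2 was 12 bases. The core TGTGGT, searched on both strands, was in 7 of the 9 member windows and in 16.8% of all 32851 windows. There were 2 copies in Klrc2 and Klrc3 and 1 in Klrc1. The 7 windows are not independent, as they include both overlapping Klrc2 windows, with the same 2 copies, and the closely similar Klrc3 window. The T-box core TCACAC was in 2 of the 9 (both Klre1, overlapping) and in 14.5% of all windows. The E-box CACGTG was in 3 of the 9 (Klrc3 and both overlapping Klrc2 windows) and in 7.15% of all windows. These are matches of letters, and no factor's binding was measured.

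Mean levels of the activating and shared partner chains were 1.64-fold to 4.76-fold higher in NK cells than in ILC1s, differences that DESeq2 called and edgeR did not. Of the inhibitory chains, Klrc1 and Klri1 had mean levels of 324 and 13.2 CPM in NK cells and 396 and 12.04 CPM in ILC1s. Neither test called them. The remaining inhibitory chain, Klrg1, lay lower in every ILC1 library than in any NK library. Its log2 fold change of -0.68 was close to the -0.71 of the partner chain Klrd1, but neither test called Klrg1. Levels are CPM, counts scaled to a common library total, on library sizes scaled by the trimmed mean of M values (TMM), and log2 fold changes are ILC1 minus NK. With edgeR's quasi-likelihood test over 14475 genes, 0 of the 10 genes passed a Benjamini-Hochberg adjusted p of 0.05 in either direction, where 0.00691% of all genes tested were called lower and 0.076% higher. At an unadjusted p under 0.05, 8 of the 10 were lower and 1 was higher, against 8.82% and 6.95% of all genes. DESeq2 called 7 of the 10 lower and 0 higher, against 2.94% and 2.83% of the genes it tested. In CPM 8 genes lay lower in every ILC1 library than in any NK library, against 13.3% of all genes, and Klrc1 lay higher in every ILC1 library, against 12.5%. The median log2 fold change of the 10 genes was -1.13, and over all genes tested it was 0.081.

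By role, DESeq2 called 5 of 5 activating chains and 2 of 2 shared partner chains lower, and 0 of 3 inhibitory chains, against 2.94% of the genes it tested. The edgeR test called 0 in each role, and the roles were grouped with the values in view. The edgeR log2 fold changes ran from -2.25 to -1.04 in the activating chains, were -1.21 and -0.71 in the partner chains, and ran from -0.68 to 0.29 in the inhibitory chains. The bulk RNA cannot tell fewer cells with a receptor from less RNA per cell.

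**Figure D1:**
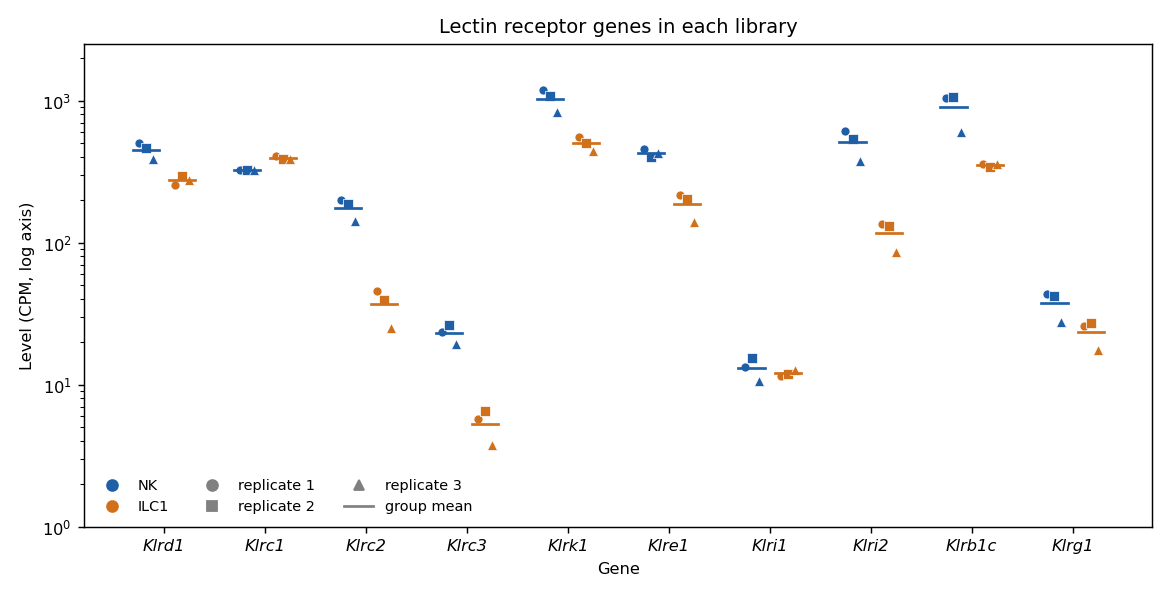
Level of each of the 10 genes in CPM (log axis) in the 3 NK libraries (blue) and the 3 ILC1 libraries (orange), with marker shapes for replicates and lines for group means. Klrc1 is the gene whose ILC1 libraries all lie above the NK libraries, Klri1 overlaps, and the other 8 lie lower in ILC1s.

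Over all genes, NK replicate 3 resembled ILC1 libraries more than the other NK libraries. It correlated with ILC1 replicates 1 and 2 at 0.977 and 0.971 (Pearson's r of log2 CPM, where genes are no independent replicates) and with each of NK replicates 1 and 2 at 0.880. Of the NK markers listed, 6 of 7 lay lower in every ILC1 library than in any NK library, against 13.3% of all genes. Of the ILC1 markers listed, 6 of 8 lay higher in every ILC1 library, against 12.5%. Ncr1 and Tbx21 stand in both lists, and Ncr1 lay lower in ILC1s while Tbx21 overlapped. The 10 macrophage markers summed to 101 to 325 CPM in 5 libraries and to 11269 CPM in ILC1 replicate 3. The 9 T cell markers summed to 58.8 to 76.7 CPM in NK cells, to 81.7 and 78.6 CPM in ILC1 replicates 1 and 2 and to 224 CPM in ILC1 replicate 3. The 7 fibroblast and matrix markers summed to 6.59 and 14.5 CPM in NK replicates 1 and 2 and to 1067 to 5933 CPM in the other 4 libraries. The highest sum, in ILC1 replicate 3, was nearly all Fn1, at 5896 CPM. Every other marker of this list was lower there than in NK replicate 3 and ILC1 replicates 1 and 2. Col3a1, for example, was at 20.8 CPM there, against 403, 472 and 762 CPM in those libraries. Markers with 0 counts were Mrc1 in NK replicate 2 (macrophage), Cd8b1 in NK replicate 1 (T cell), Lum in NK replicates 1 and 2 and Pdgfra in NK replicate 1 (fibroblast), and no NK or ILC1 marker was at 0 in any library. The part of these cells in the receptor levels was not tested, and the ranges with single libraries left out are given for all 10 genes after the values. Another fit adds library sets, drawn from this resemblance, as a term: ILC1 replicate 3 by itself, the first and second NK libraries together, and the remaining 3 libraries. Its cell type effect rests on NK replicate 3 against ILC1 replicates 1 and 2, an arm of 1 NK library, so its fold changes are given as values and its calls support nothing.

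Klrc1, which encodes the inhibitory chain NKG2A, was at 324, 322 and 325 CPM in NK replicates 1 to 3 and at 410, 390 and 387 CPM in ILC1 replicates 1 to 3. Every ILC1 library was above every NK library, by a small margin set against a narrow spread. The log2 fold change was 0.29 ± 0.11 (SE, edgeR adjusted p = 0.301), and it was positive in all 18 alternatives, from 0.24 to 0.74. The activating chain Klrc2 was at 198, 187 and 141 CPM in NK cells and at 45.9, 39.8 and 24.9 CPM in ILC1s. The groups were far apart, with NK replicate 3 the lowest NK library and ILC1 replicate 3 the lowest of all. The means differed 4.76-fold, with a log2 fold change of -2.25 ± 0.27 (edgeR adjusted p = 0.0830). DESeq2 called it lower (adjusted p = 4.5e-11), and with library sets as a term the log2 fold change was -1.72.

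Klrc3, the NKG2E gene, was at 23.4, 26.4 and 19.3 CPM in NK cells and at 5.73, 6.48 and 3.77 CPM in ILC1s, and its smallest library held 65 counts. Its groups did not overlap, and its log2 fold change of -2.11 ± 0.29 (edgeR adjusted p = 0.0959) was close to that of Klrc2. Klrd1, the CD94 gene that both kinds of NKG2 chain need, was at 499, 461 and 388 CPM in NK cells and at 254, 293 and 274 CPM in ILC1s. The groups did not overlap, though the means differed only 1.64-fold (log2 fold change -0.71 ± 0.15, edgeR adjusted p = 0.140). With library sizes scaled to the sum of Tbx21, Ncr1 and Il2rb, genes shared by both cell types, it was -0.22. These 3 genes had negative log2 fold changes themselves (-0.13, -0.72 and -0.50), so scaling to them makes any fall in ILC1s smaller. That scaling moved the median of all genes from 0.081 to 0.53.

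Klrk1, the NKG2D gene, was at 1183, 1075 and 830 CPM in NK cells and at 552, 505 and 442 CPM in ILC1s. All ILC1 libraries lay below the NK libraries, and the means differed 2.06-fold (log2 fold change -1.04 ± 0.18, edgeR adjusted p = 0.120). It was -0.65 with library sets as a term and -0.55 with the scaling to shared genes. Klrk1 made up 26.5% ± 0.46 of the summed CPM of the 10 genes in NK cells and 26.2% ± 1.05 in ILC1s (SD, n = 3 each), a difference smaller than either SD.

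Klre1, the chain shared by KLRI1 and KLRI2, was at 459, 403 and 428 CPM in NK cells and at 217, 203 and 139 CPM in ILC1s. The highest ILC1 library was still well under the lowest NK library (log2 fold change -1.21 ± 0.20, edgeR adjusted p = 0.107). With the scaling to shared genes it was -0.77. Klri1, the inhibitory partner, was at 13.3, 15.5 and 10.7 CPM in NK cells and at 11.5, 11.8 and 12.8 CPM in ILC1s. These ranges overlapped, and the log2 fold change was -0.13 ± 0.22 (edgeR adjusted p = 0.790), with a sign that turned in 3 of 18 alternatives. Klri2, the activating partner, was at 606, 539 and 378 CPM in NK cells and at 134, 131 and 85.5 CPM in ILC1s. The groups stood apart in every library, with means 4.34-fold apart (log2 fold change -2.12 ± 0.27, edgeR adjusted p = 0.0882). DESeq2 called it lower (adjusted p = 1.6e-10), and with library sets as a term the log2 fold change was -1.51.

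Klrb1c, which encodes the NK1.1 antigen, was at 1039, 1058 and 603 CPM in NK cells and at 360, 339 and 356 CPM in ILC1s. The ILC1 libraries were closely alike, while NK replicate 3 was well below the other NK libraries. The means differed 2.56-fold (log2 fold change -1.36 ± 0.24, edgeR adjusted p = 0.120). It was -0.79 with library sets as a term and -0.83 with the scaling to shared genes. Klrg1 was at 43.4, 42.0 and 27.8 CPM in NK cells and at 25.8, 27.1 and 17.7 CPM in ILC1s. The lowest NK library and the highest ILC1 library were nearly level, and the log2 fold change of -0.68 ± 0.25 (edgeR adjusted p = 0.294) was -0.071 with library sets as a term and -0.18 with the scaling to shared genes. Klrg1 was called in 0 of 18 alternatives, DESeq2 included.

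**Figure D2:**
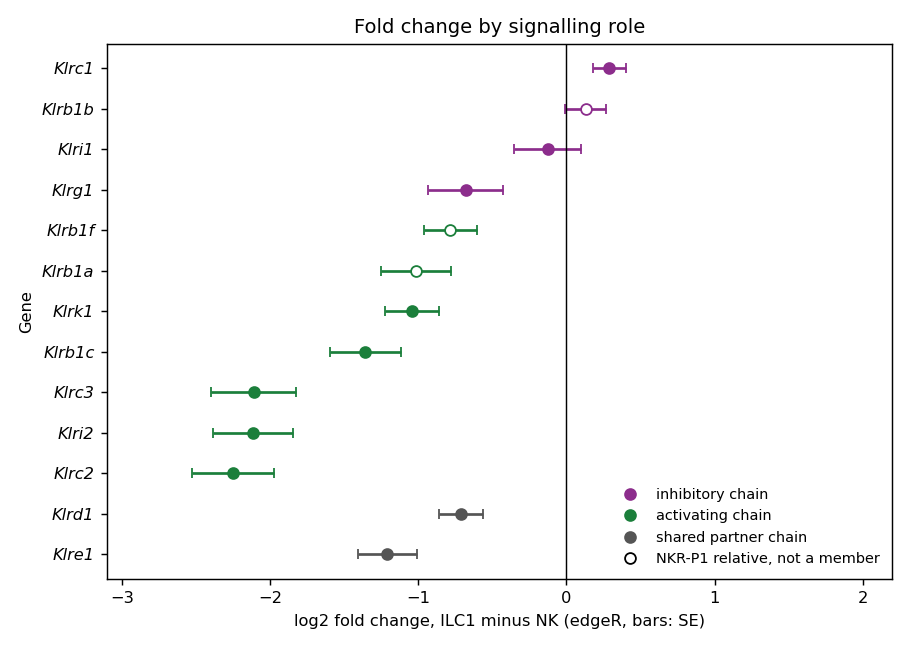
Log2 fold change (ILC1 minus NK) with its SE from the edgeR fit for the 10 genes (filled) and for 3 NKR-P1 relatives (open), coloured by known signalling role. The activating chains lie between -2.25 and -0.78. Of the inhibitory chains, Klrc1, Klrb1b and Klri1 lie near 0, from -0.13 to 0.29. The inhibitory Klrg1 lies at -0.68, close to the activating Klrb1f at -0.78. The relative Klrb1, at -1.35, was given no role and is not shown.

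Ratios of a pair of genes within a library do not depend on how libraries are scaled, and 8 such ratios were tested. Each was taken as counts per kb of annotated exon with 0.5 counts added, and compared between cell types with an exact two-sided permutation test over libraries. With 3 against 3 libraries this test cannot give a p below 0.1, or below 0.2 after Benjamini-Hochberg adjustment over these 8 ratios. The ratio of Klrc1 to Klrc2 was 4.79, 5.05 and 6.75 in NK cells and 26.1, 28.7 and 45.6 in ILC1s. The lowest ILC1 ratio was well above the highest NK ratio, a 5.94-fold difference (log2 difference 2.57, exact permutation p = 0.1, adjusted 0.2). Within the libraries that resemble each other it was 6.75 in NK replicate 3 against 26.1 and 28.7 in ILC1 replicates 1 and 2. Klrc1 made up 72.7% ± 3.23 of the 3 NKG2 chains per kb in NK cells and 93.7% ± 1.52 in ILC1s (SD, n = 3 each).

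The KLRI pair differed in the same direction. The ratio of Klri1 to Klri2 was 0.103, 0.134 and 0.132 in NK cells and 0.401, 0.422 and 0.697 in ILC1s, a 4.01-fold difference without overlap (exact permutation p = 0.1, adjusted 0.2). Klri1 made up 10.9% ± 1.40 of the pair per kb in NK cells and 33.1% ± 6.91 in ILC1s. The ratio of Klrc3 to Klrc2, both activating chains, ran from 0.934 to 1.12 in NK cells and from 0.990 to 1.29 in ILC1s. Those ranges overlapped (log2 difference 0.15, exact permutation p = 0.4, adjusted 0.457).

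Per kb of annotated exon, CD94 was also lower relative to the sum of its NKG2 partners. Unlike ratios of single genes, the difference in a ratio to a sum depends on the exon lengths used. In this sum Klrc2 is divided by 5812 bases that take in every annotated isoform, so the size of the difference is uncertain. The ratio of Klrd1 to the sum of Klrc1, Klrc2 and Klrc3 was 1.70, 1.56 and 1.42 in NK cells and 0.894, 1.08 and 1.05 in ILC1s, without overlap (log2 difference -0.63, exact permutation p = 0.1, adjusted 0.2). The ratio of Klre1 to the sum of Klri1 and Klri2 ran from 0.738 to 1.12 in NK cells and from 1.07 to 1.29 in ILC1s, and these ranges overlapped (log2 difference 0.47, exact permutation p = 0.2, adjusted 0.267). Klrb1c was lower relative to Ncr1, the NKp46 gene, with ratios of 0.836, 0.838 and 0.769 in NK cells and 0.517, 0.507 and 0.560 in ILC1s (log2 difference -0.63, exact permutation p = 0.1, adjusted 0.2). Klrk1 against its adaptor gene Hcst (DAP10) and against Klrd1 gave overlapping ranges, with log2 differences of -0.27 (exact permutation p = 0.5, adjusted 0.5) and -0.32 (exact permutation p = 0.2, adjusted 0.267).

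**Figure D3:**
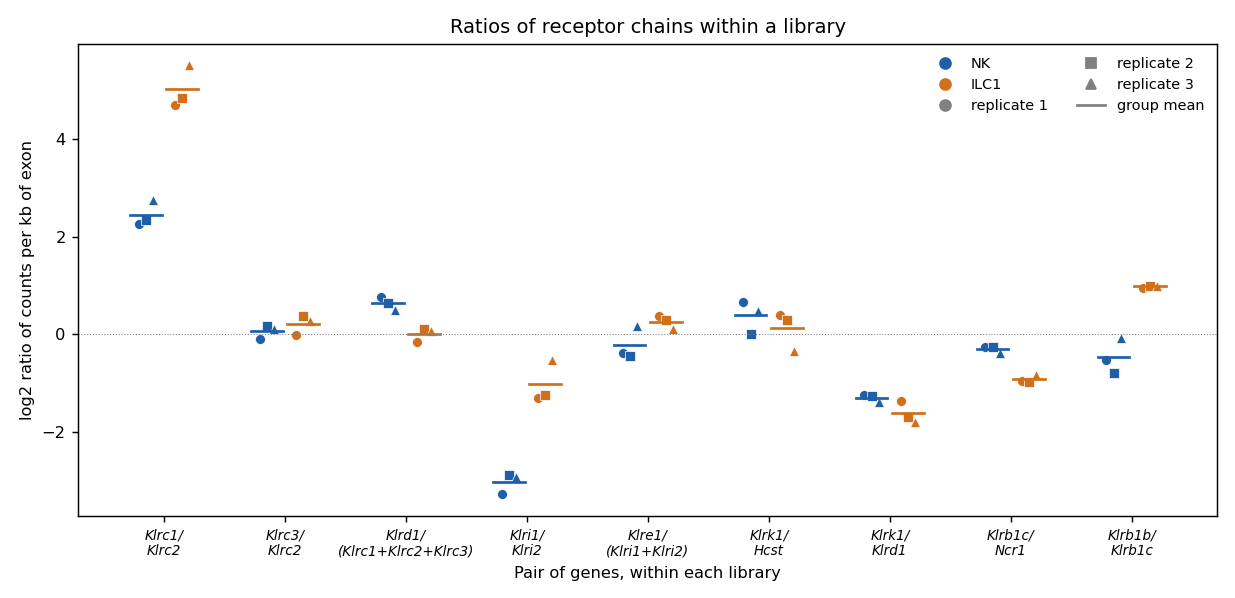
Log2 ratio of counts per kb of exon for pairs of genes within each library, in NK cells (blue) and ILC1s (orange), with marker shapes for replicates and lines for group means. The ratios of Klrc1 to Klrc2 and of Klri1 to Klri2 are higher in every ILC1 library, by 2.57 and 2.01 on average, and the last pair, Klrb1b to Klrb1c, was added after its values were seen and not tested.

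Per kb of annotated exon, the order of the 10 genes differed between the cell types. In NK cells CD94 was at the top with 351 ± 44.1 CPM per kb (SD, n = 3), followed by Klrb1c (304 ± 86.8), Klrc1 (163 ± 0.623), Klrk1 (143 ± 25.2), Klri2 (130 ± 30.0) and Klre1 (123 ± 8.17). Klrd1 overlapped Klrb1c in its libraries, and each of Klrc1, Klrk1 and Klri2 overlapped the gene after it. A gap followed, and Klrc3 (31.3 ± 4.83), Klrc2 (30.2 ± 5.23) and Klrg1 (26.7 ± 6.09) overlapped in turn, with Klri1 (15.7 ± 2.87) below them. In ILC1s Klrd1 (214 ± 15.1) and Klrc1 (199 ± 6.17) came first and overlapped, ahead of Klrb1c (119 ± 3.70), Klrk1 (69.6 ± 7.74), Klre1 (53.2 ± 11.9) and Klri2 (29.9 ± 6.99). Klrk1 overlapped Klre1 there, Klrg1 (16.7 ± 3.63) overlapped Klri1 (14.4 ± 0.761), and Klrc3 (7.24 ± 1.90) and Klrc2 (6.34 ± 1.86) were last and overlapped. So Klrc2 ranked above Klri1 in NK cells and below it in ILC1s. The exon length of Klrc2 (5812 bases) takes in every annotated isoform, against 1984 bases for Klrc1 and 736 for Klrc3. Levels per kb therefore depend on which isoforms were made, as do the shares of a chain and the ratios to a sum given above.

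Sequence shared between genes limits these values. Of the 50-base words in the transcripts of Klrc1, 38.6% also occurred in Klrc2 or Klrc3, and the shares were 16.3% for Klrc2 and 36.3% for Klrc3. Reads of 50 bases from such stretches can be split or dropped, so the true gap between Klrc1 and its relatives is uncertain. Klri1 and Klri2 shared 5.83% and 2.77% of their words with other genes. Klrb1c shared 17.0%, and 13.9% of its exon bases overlap the readthrough model Gm44511. Klrd1, Klrk1 and Klrg1 shared 0 words with any other gene, and Klre1 0.308%.

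The 10 genes lie on chromosome 6 of GRCm38 and are all annotated as protein-coding. Each count covers all exons of its gene. The positions in GENCODE M21 are 129577905 to 129585827 for Klre1 and 129591782 to 129598775 for Klrd1 on the plus strand. On the minus strand follow Klrk1 (129610323 to 129623864), Klrc3 (129639064 to 129643337), Klrc2 (129647496 to 129660689), Klrc1 (129666015 to 129678973), Klri1 (129697218 to 129717132) and Klri2 (129729041 to 129740484). Klrb1c (128778485 to 128789215) lies before them and Klrg1 (122270596 to 122282882) farther off. In this order Klrc1 and Klri1, with log2 fold changes of 0.29 and -0.13, are direct neighbours, and they sit between Klrc2 at -2.25 and Klri2 at -2.12.

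**Figure D4:**
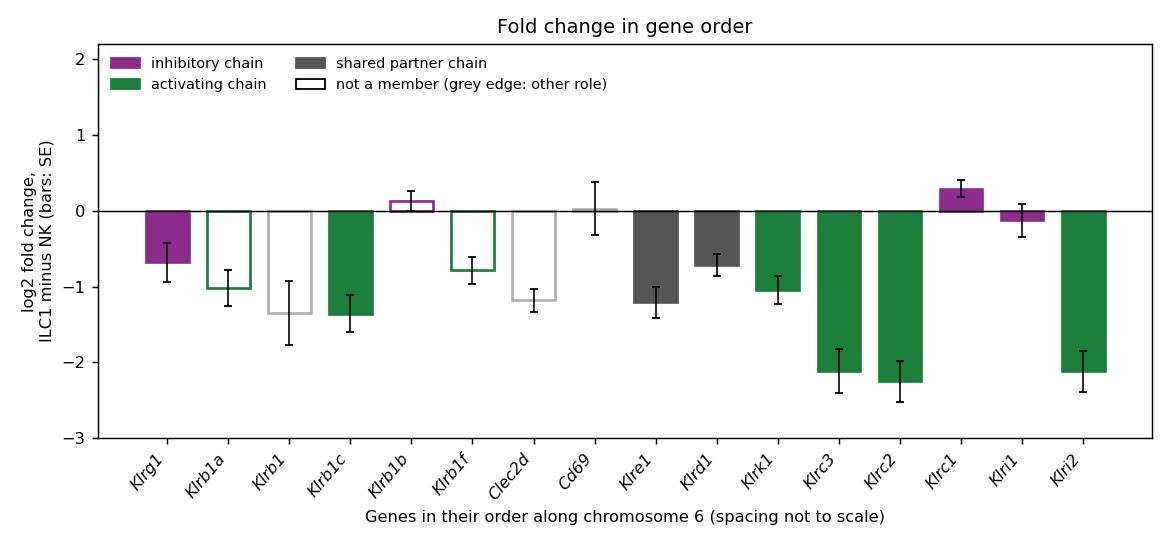
Log2 fold change (ILC1 minus NK) with its SE for the 10 genes (filled) and for relatives in the same complex (open), in their order along chromosome 6. Klrc1 and Klri1 stand next to each other near 0, between Klrc2 at -2.25 and Klri2 at -2.12.

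Among 7 other genes of the natural killer gene complex, 0 passed edgeR's test in either direction, 4 were lower at an unadjusted p under 0.05 (8.82% of all genes), and DESeq2 called 3 lower (2.94% of all genes). The activating receptors Klrb1a and Klrb1f were at 115 ± 33.7 and 193 ± 22.2 CPM in NK cells and at 57.0 ± 2.34 and 112 ± 19.8 CPM in ILC1s (SD, n = 3 each), and DESeq2 called both lower. Klrb1b, an inhibitory receptor of the NKR-P1 family, was at 540, 460 and 430 CPM in NK cells and at 525, 507 and 533 CPM in ILC1s. These ranges overlapped (log2 fold change 0.13 ± 0.14, edgeR adjusted p = 0.683). The ratio of Klrb1b to Klrb1c per kb, chosen after its values were seen and not tested, was 0.691, 0.578 and 0.947 in NK cells and 1.94, 1.99 and 1.99 in ILC1s. Some exons of both genes lie in Gm44511, which can take reads from either. Clec2d, which encodes the Clr-b ligand of Klrb1b and stands in this list and that of ligands, was at 130 ± 17.0 CPM in NK cells and 57.5 ± 5.10 CPM in ILC1s, and DESeq2 called it lower (adjusted p = 1.7e-05). Cd69 was at 164 ± 54.5 and 167 ± 56.6 CPM, and Klrb1 and Klrh1 stayed under 8 CPM in every library. Klrb1, which was left out of the grouping by role, was at 5.85 ± 2.12 CPM in NK cells and 2.30 ± 0.34 CPM in ILC1s. Its groups did not overlap (log2 fold change -1.35 ± 0.43, edgeR adjusted p = 0.252).

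Of the 2 adaptor genes, 0 passed either test. Hcst, the DAP10 gene through which NKG2D signals, was at 75.2, 108 and 59.7 CPM in NK cells and at 42.0, 41.5 and 56.1 CPM in ILC1s, without overlap (log2 fold change -0.80 ± 0.26, edgeR adjusted p = 0.257). Tyrobp, the DAP12 gene, was at 799, 1223 and 597 CPM in NK cells and at 417, 560 and 1075 CPM in ILC1s, with the highest ILC1 value in replicate 3. The macrophage markers summed to 11269 CPM in that library and to 101 CPM in NK replicate 2, where Tyrobp was highest. Macrophages also express Tyrobp, and their part in its level was not tested. Of 10 signalling genes of these receptors, 0 passed either test and 3 were lower at an unadjusted p under 0.05, against the same 8.82%. The T cell and NK cell kinase gene Lck was at 655 ± 167 CPM in NK cells and 427 ± 25.2 CPM in ILC1s. Ptpn6, the gene of the SHP-1 phosphatase that acts at ITIMs, was at 302, 339 and 182 CPM in NK cells. In ILC1s it was at 229, 213 and 445 CPM, highest in replicate 3.

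Of 14 ligand genes, 10 were tested, 0 passed edgeR's test (3 lower and 1 higher at an unadjusted p under 0.05, against 8.82% and 6.95% of all genes). DESeq2 called Clec2d and Clec2i lower and Cdh1 higher, against 2.94% and 2.83% of all genes. The Qa-1 gene H2-T23 was at 466, 401 and 347 CPM in NK cells and at 291, 286 and 520 CPM in ILC1s, with the highest value in ILC1 replicate 3. Cdh1, which encodes the KLRG1 ligand E-cadherin, was at 23.3, 14.4 and 12.2 CPM in NK cells and at 107, 97.5 and 377 CPM in ILC1s. The groups did not overlap, and ILC1 replicate 3 was the highest (log2 fold change 3.54 ± 0.67, edgeR adjusted p = 0.130). Raet1d, a gene for an NKG2D ligand, had 0 counts in NK replicates 1 and 2, 1.92 CPM in NK replicate 3 and 2.73, 3.65 and 13.3 CPM in ILC1s. Raet1d was thus at 0 where the fibroblast and matrix markers summed lowest (6.59 and 14.5 CPM in NK replicates 1 and 2). Cdh1 was lowest in NK replicate 3, where those markers summed to 1067 CPM. The part of cells with matrix or macrophage markers in either level was not tested.

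The 10 genes summed to 4389, 4129 and 3152 CPM in NK cells and to 2016, 1947 and 1742 CPM in ILC1s. Every NK library was above every ILC1 library, with a log2 difference of -1.02 (exact two-sided permutation p = 0.1, the smallest this design allows). Of 12423 candidate genes, the 5 whose log2 CPM over the 6 libraries was most like the mean of the 10 genes were Nck1, Cdc42ep3, Slc25a53, Ms4a4b and Ret, with Pearson's r from 0.997 to 0.999. The 6 points of each share their libraries and fall into 2 groups, so these are descriptions. The SH2 and SH3 adaptor gene Nck1 was at 68.1, 69.3 and 56.0 CPM in NK cells and at 36.0, 36.4 and 30.1 CPM in ILC1s, and the membrane protein gene Ms4a4b at 1024, 917 and 698 and at 396, 408 and 326 CPM. NK replicate 3 was the lowest NK library for both, as it was for 8 of the 10 receptor genes (all but Klrc1 and Klre1).

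Calls on the receptor genes depended on single libraries, as did calls over all genes. Without NK replicate 3 edgeR called 5 of the 10 lower (Klrc2, Klrc3, Klrk1, Klri2 and Klrb1c), where it called 1.33% of all genes lower. Without ILC1 replicate 3 it called Klrc2, and 0.0729% of all genes, and without any of the other 4 libraries it called 0. The fold changes moved less. With each of the 6 libraries left out in turn, the log2 fold change ran from -2.43 to -2.04 for Klrc2, from -2.27 to -1.92 for Klrc3, from -2.28 to -1.94 for Klri2, from -1.57 to -1.22 for Klrb1c and from -1.17 to -0.94 for Klrk1. For the partner chains it ran from -1.32 to -1.05 (Klre1) and from -0.80 to -0.64 (Klrd1). For the inhibitory chains it ran from 0.27 to 0.31 (Klrc1), from -0.85 to -0.52 (Klrg1) and from -0.25 to 0.0094 (Klri1).

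**Figure D5:**
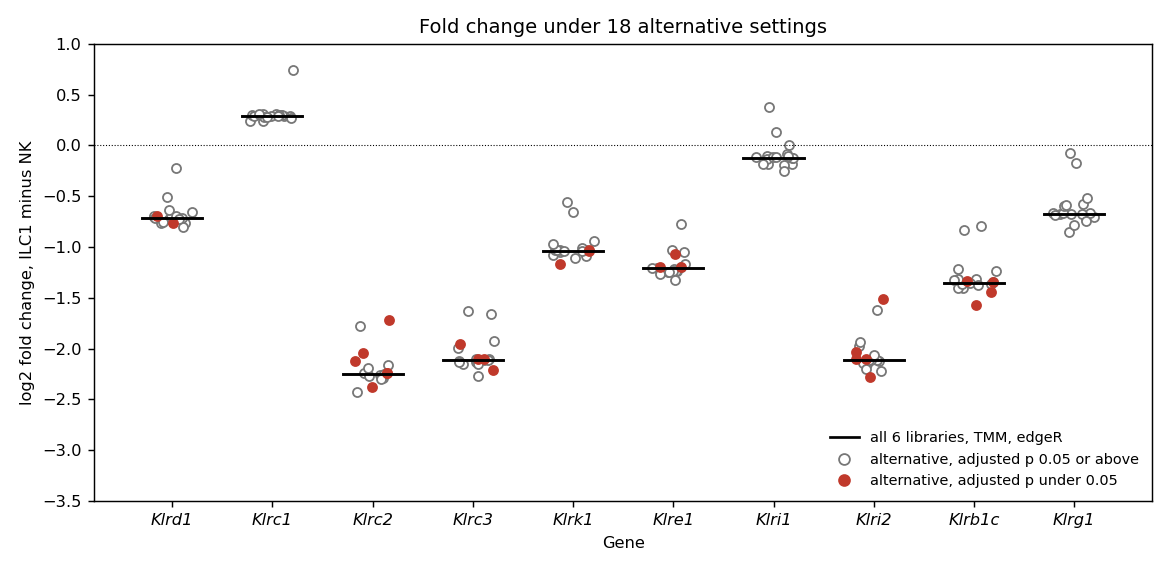
Log2 fold change (ILC1 minus NK) of each of the 10 genes in the edgeR fit on all libraries (black line) and in 18 alternatives (points, red where the adjusted p was under 0.05). The sign is the same throughout for 9 of the 10 genes, and Klri1 crosses 0.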

How the data were processed

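RNA-seq counts of 3 NK and 3 ILC1 libraries were used. The authors deposited raw counts per gene symbol, made with HISAT2 2.1.0 and featureCounts 2.0.1 on GRCm38 per the submitters' processing notes. Per the labels' protocols, poly(A) RNA was read as single-end reads of 50 bases. The sources used here do not give the strand setting, the annotation release or how reads with several positions were treated, and name no molecular identifiers. A gene with 0 counts could be at up to 0.144 to 0.174 CPM (3 counts), which covers counting error alone.

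Counts were fitted with edgeR 4.0.16 (R 4.3.3): TMM factors, filterByExpr, robust quasi-likelihood, cell type as the term, SE as the fold change over the root of F, Benjamini-Hochberg over 14475 genes. The fit was tested on simulated data. DESeq2 1.42.0, limma 3.58.1 and further settings were alternatives. Permutation tests used scipy 1.17.1. Exon lengths, positions and transcripts came from GENCODE M21. No pair of libraries agreed within counting noise (median chi-square per gene at least 2.42, where counting gives 0.455). Members, lists and tests were chosen with earlier results of these data known. All 10 members are named whatever their result, with called list genes, examples from each list and the 5 genes most like the members' mean.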

Additional observations from a re-analysis of the deposited data

How the results depend on the processing

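The count of receptor genes called lower in ILC1s was 0 in the edgeR fit. It was 5 with no low-count filter (0.348% of all genes called lower), 7 with DESeq2 (2.94%), 7 with limma-voom and library weights (7.5%), and from 0 to 5 with single libraries left out (up to 1.33%). It was 2 with library sets as a term (0.117%), where 1 NK library carries the effect. It was 0 with RLE, upper-quartile or no normalization factors, the scaling to shared genes, a minimum mean of 5 CPM and limma-voom. A prior count of 0.5 changes the fold changes but not the p-values, so its count of 0 is that of the main fit. None was called higher in any of these. Of the other pathway genes, 1 was called lower with no low-count filter, 4 with DESeq2, 12 with library weights and from 0 to 2 with single libraries left out, and 1 and 2 were called higher by DESeq2 and with library weights (2.83% and 7.79% of all genes). The shares of all genes called lower are those above, so calls rose broadly under these settings. Klri1 turned positive with the scaling to shared genes (0.38), library sets as a term (0.13) and without NK replicate 2 (0.0094, against -0.25 without NK replicate 3). The other 9 genes kept their sign. All ratios and sums kept theirs in 82 of 82 alternatives, but many of these could not turn it. For a ratio, the replicate block gives the same mean difference by construction. Where groups do not overlap, leaving out a library cannot turn the sign. The labels number replicates 1 to 3 in both cell types, but same-numbered libraries did not deviate together (correlations -0.36, -0.36 and -0.56), and with the replicate block 0 receptor genes were called and Klrc2 was -2.28. The causes of these differences were not tested. With 3 libraries a group, permutation tests cannot pass 0.05, and Klrc3 had as few as 65 counts in a library.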
